A study of Mus musculus with 13 samples.

Results

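Sox1, Sox2, Sox21, Sox4, Sox11, Sox8, Pou3f1, Pou3f2 and Pou3f3 encode transcription factors of the nervous system, and the open chromatin around these 9 genes is described here in forebrain and forelimb cells of mouse embryos. A region belonged to a gene when its strongest summit lay within 100 kb of the gene body in GENCODE M21 on GRCm38. Of 1360342 regions on the main chromosomes in 13 libraries, 1727 met this rule. ATAC-seq, in which the Tn5 transposase inserts adapters into accessible DNA, was done on 50000 cells per library at E12.5. Cells came from the forebrain (FB) and from the distal (DFL) and proximal (PFL) parts of the forelimb, in embryos of the B6CBAF1 strain that were either wild type (wt) or carried the allele II1TDOM 542 (542). In that allele, kept as a single line, the distal limb enhancer II1 with an HBB promoter and LacZ was placed into the T-DOM domain beside the HoxD cluster on chromosome 2, and none of the 9 genes lies on that chromosome. Embryos carrying 542 were homozygous and each library came from pooled embryos. With 2 libraries in each of the 6 groups of genotype and tissue, 12 libraries were compared, and an earlier wt DFL library is given apart.

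SOX factors bend DNA through an HMG box that reads words such as ACAAT. The B1 members SOX1 and SOX2 maintain neural progenitors, the B2 member SOX21 counteracts them, the C members SOX4 and SOX11 act in cells that become neurons, and the E member SOX8 acts with SOX9 and SOX10 in neural crest, glia and cartilage. The POU3 factors POU3F1, POU3F2 and POU3F3 read octamer words such as ATGCAAAT, often beside SOX2, and act in progenitors and maturing neurons. A region open in one tissue only is the usual form of a tissue-specific enhancer, whereas regions over CpG-rich transcription starts are often open in many tissues.

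Depth was 37.5 to 70.7 M tags with 85104 to 118339 regions per library, with means of 60.8 M tags in FB against 44.6 in limb and 54.6 in wt against 45.5 in 542. To set the lists to equal length, the 50000 strongest regions of each library were kept ("listed"), and these joined into 105605 consensus regions, of which 144 belonged to the 9 genes. Any deposited region, at whatever rank, is termed "called" below. By the number of listed regions within 100 kb, 7 of 8 forebrain markers were higher in FB and 5 of 6 limb mesenchyme markers were lower, with Tbx5 at 0 or 1 region in FB. Of all genes tested in this way, 23.0% were higher and 20.4% lower in FB. All 3 distal limb markers, Hoxa13 among them, were lower in FB, of the 3 proximal ones Shox2 and Hoxd9 were lower and Meis1 was higher, and none of these 6 separated DFL from PFL. Among markers of other cells in FB against limb, Sox10 and Foxd3 (neural crest and glia), Gata1 (blood) and Myod1 (muscle) were higher, Myf5 (muscle) and Kdr (vessel) were lower, Cdh5 and Trp63 did not pass and Hbb-bt and Krt5 were not tested. The part of such cells in the results below was not tested, and fewer open cells cannot be told apart from less open DNA per cell in bulk libraries.

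Each sequence below is 200 bases of GRCm38.p6, plus strand, centred on the summit of the strongest FB-only region of one of 6 genes, that is, a region listed in all 4 FB libraries and in no limb library. A limb-only region of Sox11 closes the set because it lies at the same locus. Capitals mark, on either strand, the SOX words ACAAT and ACAAAG and the octamer words ATGCAAAT and ATGCTAAT. They also mark the homeobox word TAATTA and the E-box words CAGCTG and CAGATG.
Sox1, 55.6 kb upstream, chr8:12339561-12339760: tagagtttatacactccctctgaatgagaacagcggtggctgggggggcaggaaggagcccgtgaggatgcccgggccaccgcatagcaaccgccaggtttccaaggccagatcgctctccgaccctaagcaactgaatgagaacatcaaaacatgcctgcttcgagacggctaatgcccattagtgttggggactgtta
Sox8, 8.9 kb downstream, chr17:25561679-25561878: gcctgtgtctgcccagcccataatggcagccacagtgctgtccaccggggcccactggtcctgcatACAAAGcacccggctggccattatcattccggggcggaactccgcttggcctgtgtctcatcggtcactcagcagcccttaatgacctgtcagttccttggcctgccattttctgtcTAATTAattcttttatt
Sox4, 93.5 kb downstream, chr13:28860159-28860358: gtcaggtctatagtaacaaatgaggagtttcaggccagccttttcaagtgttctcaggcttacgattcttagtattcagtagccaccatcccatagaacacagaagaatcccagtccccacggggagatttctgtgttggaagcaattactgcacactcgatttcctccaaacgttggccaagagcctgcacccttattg
Pou3f1, 15.8 kb downstream, chr4:124672474-124672673: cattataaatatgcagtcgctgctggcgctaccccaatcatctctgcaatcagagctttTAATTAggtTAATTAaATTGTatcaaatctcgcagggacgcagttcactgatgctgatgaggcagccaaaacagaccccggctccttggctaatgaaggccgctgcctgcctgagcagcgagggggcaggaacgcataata
Pou3f2, 95.1 kb downstream, chr4:22393173-22393372: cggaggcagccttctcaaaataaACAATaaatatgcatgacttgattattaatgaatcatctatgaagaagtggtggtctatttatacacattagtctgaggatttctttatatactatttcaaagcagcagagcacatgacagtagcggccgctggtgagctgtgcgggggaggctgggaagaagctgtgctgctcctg
Sox11, 14.9 kb upstream, chr12:27357379-27357578: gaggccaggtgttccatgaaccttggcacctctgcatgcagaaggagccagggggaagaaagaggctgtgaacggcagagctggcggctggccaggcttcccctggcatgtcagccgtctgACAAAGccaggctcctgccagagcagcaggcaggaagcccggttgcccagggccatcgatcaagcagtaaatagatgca
Sox11, limb only, 88.2 kb downstream, chr12:27254300-27254499: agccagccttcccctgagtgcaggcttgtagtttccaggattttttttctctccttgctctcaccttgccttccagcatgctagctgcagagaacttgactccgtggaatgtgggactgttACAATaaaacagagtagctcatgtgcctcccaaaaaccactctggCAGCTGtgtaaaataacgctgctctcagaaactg
The Pou3f1 stretch held 2 TAATTA words and an ACAAT on the minus strand within a few bases of each other, while the Sox1 and Sox4 stretches held none of the 7 words. A word in such a window is a description and not a bound site.

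More regions were listed around most of the 9 genes in FB than in limb, but not around all of them. On log2(n + 1), where n is the number of listed regions within 100 kb, 6 genes had more in FB (Sox1, Sox2, Sox21, Sox4, Pou3f2, Pou3f3), Sox8 had fewer, and Sox11 and Pou3f1 did not pass (limma over 18578 protein-coding genes, Benjamini-Hochberg threshold 0.05). Across all genes tested, 23.0% had more and 20.4% had fewer. The median difference was 0.52 for the 9 genes and 0.02 for all genes. Within wt libraries alone 3 of the 9 genes had more, and within 542 alone 5 had. The share of all genes in these within-genotype fits is not given here, so these counts have no background to be set against. Sox4 stood at the threshold (below). With the 20000 strongest regions of each library only 5 of the 9 genes reached a mean of 2 regions and were tested (not Sox1, Sox2, Sox11 and Pou3f3), and of these 2 had more in FB (Sox21 and Pou3f2, against 15.4% of all genes) and none fewer (against 17.5%).

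**Figure D1:**
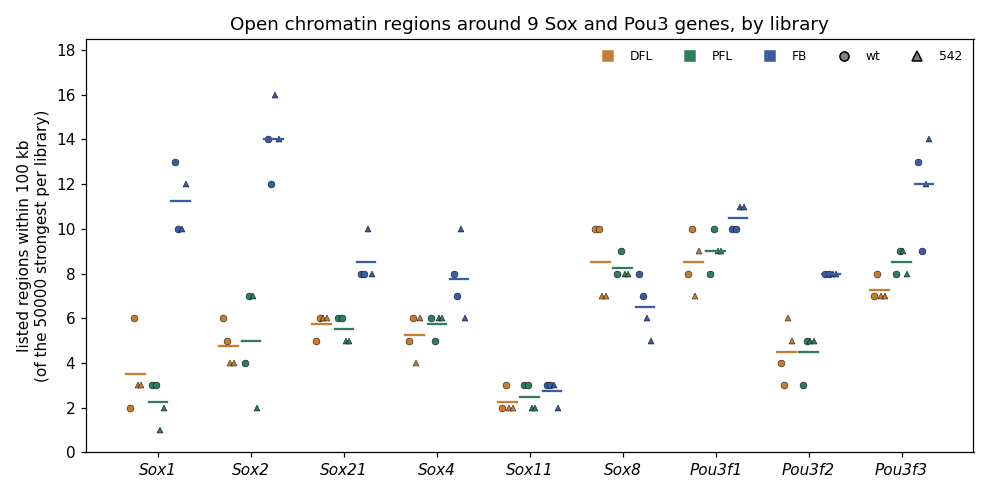
Number of listed regions (of the 50000 strongest per library) within 100 kb of each of the 9 genes. Points are single libraries, coloured by tissue with circles for wt and triangles for 542, and short bars are the means of 4 libraries. Sox1 and Sox2 show the widest gap, with 10 to 16 regions in every FB library against 1 to 7 in the limb libraries, whereas Sox11 lies at 2 or 3 in each library.

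**Figure D2:**
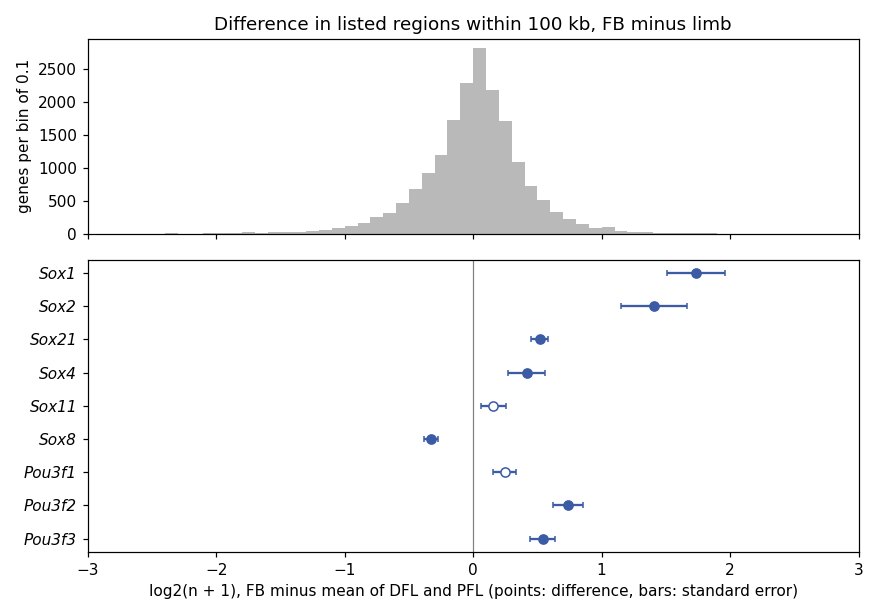
Difference in listed regions within 100 kb, FB minus the mean of DFL and PFL, on log2(n + 1). The upper panel is a histogram of all 18578 genes tested, the lower panel gives the 9 genes with standard errors, filled where the adjusted p passed 0.05. Sox1 (1.73) and Sox2 (1.41) lie in the right tail and Sox8 (−0.33) to the left of 0.

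Sox1 (chr8:12395295-12400126, plus strand, a single exon) had the largest difference. In DFL the wt libraries held 2 and 6 listed regions and the 542 libraries 3 and 3, in PFL 3 and 3 (wt) and 1 and 2 (542), and in FB 13 and 10 (wt) and 10 and 12 (542). No FB library overlapped a limb library. The difference was 1.73 ± 0.23 (log2, SE), with an adjusted p of 0.00106, and it passed within wt (1.53, adjusted p = 0.0133) and within 542 (1.93, adjusted p = 0.00561). No other coding gene lies within 100 kb, and the noncoding Sox1ot gene overlaps it.

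Of 19 consensus regions at Sox1, 5 were FB-only. The strongest of them, 55.6 kb upstream at chr8:12339168-12340186 (its core is printed above), had folds of 9.33 and 9.52 in wt FB and 8.99 and 10.8 in 542 FB. The fold is the ratio of tags at the summit to the local background of the same library. This region was called in 1 of 8 limb libraries, at a fold of 4.03. A second, 67.4 kb upstream at chr8:12327244-12328406, had folds of 7.75 to 9.56 in FB and no limb call at any rank. Both are intergenic. Of the other 3, one 35.0 kb downstream in an exon of Sox1ot (chr8:12429621-12431371) had 5.94 to 9.06 in FB and 2.71 to 3.02 in 4 limb libraries, one 44.0 kb downstream had 5.54 to 9.46 in FB and 3.52 and 3.78 in 2 limb libraries, and one 9.8 kb upstream over a start of Sox1ot had 4.54 to 5.91 in FB and 2.46 to 4.83 in 5 limb libraries. The last overlapped in fold.

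The region over the Sox1 start (chr8:12394933-12395984) was called in all 12 libraries. Its folds were 9.03 and 9.05 in wt FB and 8.71 and 8.57 in 542 FB. In DFL they were 7.55 and 5.65 (wt) and 6.01 and 7.21 (542), and in PFL 4.56 and 3.87 (wt) and 3.24 and 3.85 (542). The 3 tissues did not overlap, in the order FB, DFL, PFL. FB exceeded limb by 0.70 ± 0.13 on log2 fold (SE, adjusted p = 0.00102) and DFL exceeded PFL by 0.76 ± 0.15 (adjusted p = 0.00858). Within wt alone the DFL against PFL difference was 0.59 (adjusted p = 0.209). The summit held 5.57 to 5.90 tags per M tags of the library in FB and 0.475 to 1.60 in limb (2.66 ± 0.14 on log2, adjusted p = 3.22e-17), a ratio of means of 6.03. Tag differences on log2, here and below, were fitted after quantile normalization, while ranges and ratios of tags are without it.

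Sox2 (chr3:34650405-34652461, plus strand, a single exon inside the long noncoding Sox2ot gene) had 6 and 5 listed regions in wt DFL and 4 and 4 in 542 DFL. There were 4 and 7 in wt PFL and 7 and 2 in 542 PFL. FB had 14 and 12 (wt) and 16 and 14 (542), all above the limb range. The difference was 1.41 ± 0.26 (adjusted p = 0.0043). It was 1.12 within wt (adjusted p = 0.0578) and 1.69 within 542 (adjusted p = 0.0145), and the difference between genotypes did not pass (adjusted p = 0.77). With regions ranked by fold it was 0.57 (adjusted p = 0.0657), and with listed regions of fold 5 or more 0.84 (adjusted p = 0.0866).

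Sox2 had 24 consensus regions, the largest number of the 9 genes, and 7 FB-only regions. As Sox2ot spans most of the window, 19 of the 24 were intronic. The strongest FB-only region lay 88.5 kb upstream (chr3:34561620-34562127), with folds of 6.14 and 6.25 in wt FB and 7.32 and 6.43 in 542 FB. Next was one 91.1 kb upstream (chr3:34558663-34559491), at 5.01 to 5.45. Neither was called in any limb library, and both are in introns of Sox2ot. Another 5 FB-only regions lay within 17.7 kb of the Sox2 start, at mean FB folds between 3.24 and 4.67. Of these, 3 had no limb call, while those 7.7 kb upstream and 14.0 kb downstream were called in 4 and 7 limb libraries at folds that overlapped those of FB.

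Over the Sox2 start (chr3:34649236-34651057) folds were 8.07 and 7.81 in wt FB against 6.08 and 6.63 in 542 FB. DFL had 4.83 and 4.93 (wt) and 5.29 and 5.67 (542), and PFL 4.05 and 5.07 (wt) and 7.0 and 6.54 (542). The 542 PFL libraries thus lay among the FB libraries. FB exceeded limb by 0.32 ± 0.12 (adjusted p = 0.046), by 0.69 within wt (adjusted p = 0.00866) and by −0.05 within 542 (adjusted p = 0.859). It passed in 1 of the 12 fits that left out 1 library (adjusted p from 0.0291 to 0.119). Tags did not overlap, at 4.33 to 5.28 per M tags in FB and 0.861 to 1.40 in limb (2.08 ± 0.12 on log2, adjusted p = 8.11e-16), with both 542 FB libraries below both wt FB libraries. For 542 against wt over the 3 tissues neither fold (0.26 ± 0.11, adjusted p = 0.323) nor tags (0.27, adjusted p = 0.194) passed.

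Sox21 (chr14:118233232-118237030, minus strand, a single exon) had 5 or 6 listed regions in every limb library and 8, 8, 10 and 8 in FB, again without overlap. The difference was 0.52 ± 0.06 (adjusted p = 0.000843) and passed in each genotype. When all deposited regions were counted it was 0.14 (adjusted p = 0.313). Gpr180 and Gm9376 are the other coding genes in the window. The start region (chr14:118236007-118237550), which also covers a start of Gm4675, had folds of 6.34 to 7.21 in FB against 3.95 to 5.41 in limb. This was 0.47 ± 0.12 higher in FB (adjusted p = 0.00631), though not past the threshold within 542 (0.41, adjusted p = 0.0967), and tags were 3.53 times higher (1.70 ± 0.13 on log2, adjusted p = 3.09e-13).

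The 3 FB-only regions of Sox21 all lay downstream. That at 24.4 kb (chr14:118212146-118212926) covers a start of the noncoding 4933431J24Rik, had folds of 7.82 and 5.13 in wt FB and 5.13 and 7.08 in 542 FB and was not called in limb. That at 6.5 kb (chr14:118229782-118231352) had 5.45 to 6.27 in FB, with 326 to 441 tags, and was called weakly in 2 of 8 limb libraries, with 22 and 21 tags. That at 10.8 kb (chr14:118226015-118226347) had 2.46 to 3.16 in FB and 3.19 to 4.34 in 5 limb libraries, so its fold was no higher in FB although its rank was. On the other side of the gene, 2 regions 46.2 and 51.4 kb upstream were listed in all 4 DFL libraries and 1 of 4 PFL libraries and called in no FB library.

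**Figure D3:**
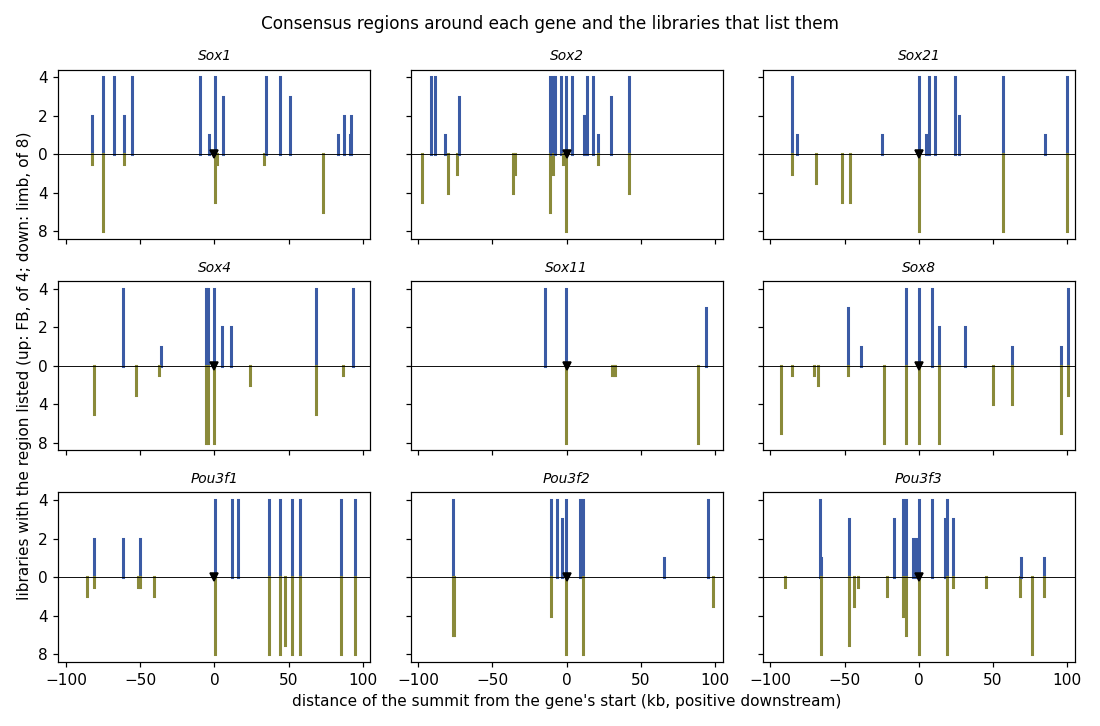
Position of each consensus region by the distance of its summit from the gene's start, positive downstream. Bars upward give the number of FB libraries (of 4) and bars downward the number of limb libraries (of 8) that list it, so that a full bar of either kind has the same height. Sox1 and Sox2 have many full FB bars without a limb counterpart, while at Pou3f1 most full bars are paired.

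The C members gave a smaller difference or none. Sox4 (chr13:28948919-28953713, minus strand, a single exon) had 5 and 6 (wt) and 4 and 6 (542) listed regions in DFL, and 6 and 5 (wt) and 6 and 6 (542) in PFL. The wt FB libraries had 8 and 7 and the 542 FB libraries 10 and 6. One 542 FB library thus fell within the limb range. The difference of 0.42 ± 0.14 had an adjusted p of 0.04995. It did not pass within wt (0.39, adjusted p = 0.198) or within 542 (0.45, adjusted p = 0.145), nor in 10 of the 12 fits that left out 1 library, where adjusted p ranged from 0.0162 to 0.164. The start region (chr13:28952740-28954157) had folds of 9.18 on average in PFL, 9.61 in DFL and 9.29 in FB and no difference passed (−0.18 ± 0.09, adjusted p = 0.118). Its tags were 7.63 to 8.38 per M tags in 3 FB libraries and 4.78 to 6.84 in limb, without a test because the value of the first wt FB library could not be recovered.

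Sox4 had 2 FB-only regions, which were picked for being listed in FB and not in limb. One, 93.5 kb downstream (chr13:28859895-28860699, in an intron of 2610307P16Rik), had folds of 8.99 and 6.10 in wt FB and 7.73 and 7.39 in 542 FB against 3.13 to 4.34 in the 3 limb libraries that called it. The other, 61.4 kb upstream (chr13:29014697-29016653), covers a start of the noncoding A330102I10Rik and had 6.17 to 7.55 in FB and 4.20 in the 1 limb library with a call.

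Sox11 (chr12:27334264-27342574, minus strand, a single exon) had 2 or 3 listed regions in every library of every tissue, the lowest number of the 9 genes. Its difference was 0.16 ± 0.10 (adjusted p = 0.231). Within 250 kb instead of 100 kb, limb libraries had more (−0.69, adjusted p = 0.00127). The start region (chr12:27341898-27343766) was among the more open ones in all tissues, with mean folds of 10.5 in DFL, 11.2 in PFL and 11.2 in FB (−0.13 ± 0.07, adjusted p = 0.158).

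Among its 7 consensus regions Sox11 had 1 FB-only and 1 limb-only region. The FB-only region 14.9 kb upstream (chr12:27356885-27357839) had folds of 7.94 and 6.67 in wt FB and 5.45 and 7.54 in 542 FB, and weaker calls of 2.56 to 4.98 in 6 of 8 limb libraries. In the earlier wt DFL library, however, this region stood at 12.9, above every FB library. The limb-only region 88.2 kb downstream (chr12:27254002-27255077) had no FB call at any rank. Its folds were 13.8 and 16.2 in wt DFL, 5.16 and 7.93 in 542 DFL, 11.9 and 9.46 in wt PFL and 9.70 and 10.4 in 542 PFL. Both wt DFL values thus lay above both 542 DFL values, on 96 and 104 tags against 27 and 41. Since it was not called in all libraries, this region was not part of the fit and the difference was not tested.

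Sox8 (chr17:25565892-25570686, minus strand) was the only gene with fewer listed regions in FB. DFL had 10 and 10 (wt) and 7 and 7 (542), PFL 8 and 9 (wt) and 8 and 8 (542), and FB 8 and 7 (wt) and 6 and 5 (542). The ranges meet at 7 and 8. The difference was −0.33 ± 0.06 (adjusted p = 0.00345), and it passed in each genotype. It depended on the window and list, since it was −0.04 at 50 kb (adjusted p = 0.718), 0.21 at 250 kb (adjusted p = 0.00486) and 0.18 with all deposited regions (adjusted p = 0.164). Coding neighbours in the window are Tekt4, Sstr5 and Lmf1.

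Regions at Sox8 went both ways. The limb-only region 23.4 kb upstream (chr17:25593305-25594536, in an intron of Lmf1) had folds of 11.8, 8.58, 11.5 and 9.38 in DFL and 6.98, 6.74, 6.21 and 6.79 in PFL, without overlap between the limb parts, and no FB call. The FB-only region 8.9 kb downstream (chr17:25561390-25562134) had 9.24 and 7.96 in wt FB and 9.11 and 8.99 in 542 FB, with no limb call. It was second in mean FB fold among the 26 FB-only regions, after that 55.6 kb upstream of Sox1. In the fit, a region 13.9 kb downstream (chr17:25555199-25557172) was lower in FB by −0.56 ± 0.14 (adjusted p = 0.00567) and one 95.8 kb downstream over an exon of Tekt4 (chr17:25474346-25475055) by −0.56 ± 0.14 (adjusted p = 0.00818). The first did not pass within 542 (−0.45, adjusted p = 0.119) or without the second wt FB library (adjusted p = 0.0506). The latter did not pass within wt (−0.24, adjusted p = 0.429) or without the first wt FB (adjusted p = 0.0634) or the first 542 FB library (adjusted p = 0.0748). Over the Sox8 start (chr17:25570108-25571462) folds were 7.06 to 12.2 in DFL, 8.21 to 9.46 in PFL and 8.03 to 10.6 in FB (−0.15 ± 0.10, adjusted p = 0.264). In the fit of tags FB was lower (−0.33 ± 0.12, adjusted p = 0.0224), with a ratio of means of 0.84. The FB tags lay within the limb range, however, at 1.535 to 1.952 per M tags against 1.087 to 2.744.

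The 3 POU3 genes differed from each other. Pou3f2 (chr4:22482780-22488366, minus strand, a single exon) had 8 listed regions in each of the 4 FB libraries. DFL had 4 and 3 (wt) and 6 and 5 (542), and PFL 3 and 5 (wt) and 5 and 5 (542). The difference was 0.74 ± 0.12 (adjusted p = 0.00228) and passed in each genotype, but with regions ranked by fold it was −0.05 (adjusted p = 0.66) and with all deposited regions 0.26 (adjusted p = 0.0587). Fbxl4 is the only other coding gene in the window.

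At Pou3f2 the clearest region lay 76.4 kb upstream (chr4:22564393-22565072, intergenic) and was called in all 12 libraries. Folds were 11.6 and 10.3 in wt FB and 11.9 and 12.1 in 542 FB. They were 4.34 and 4.06 in wt DFL, 5.93 and 6.70 in 542 DFL, 8.72 and 6.37 in wt PFL and 6.03 and 5.81 in 542 PFL. FB exceeded limb by 0.82 ± 0.11 (adjusted p = 8.26e-05), with a similar value in each genotype, and tags were 2.15 times higher (1.03 ± 0.15 on log2, adjusted p = 3.1e-07). PFL exceeded DFL (−0.47 ± 0.13 for DFL minus PFL, adjusted p = 0.0445), with −0.98 in wt (adjusted p = 0.0234) and 0.04 in 542 (adjusted p = 0.935). That call did not pass in 11 of the 12 fits that left out 1 library.

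Pou3f2 had 3 FB-only regions. The strongest, 95.1 kb downstream (chr4:22392676-22393747) in an intron of Fbxl4, had 8.64 and 8.21 in wt FB and 6.57 and 6.37 in 542 FB, and 4.10 in the only limb library with a call. The second, 9.3 kb downstream (chr4:22478554-22479656), had 3.45 to 4.15 in FB, and the third, 6.8 kb upstream, had 3.08 to 3.94, each with weaker calls in 2 limb libraries. Beside the second, a region 11.2 kb downstream (chr4:22476962-22478195) gave opposite results by the 2 measures. Its folds were 6.40 to 7.66 in FB and 8.11 to 9.76 in limb, which was lower in FB by −0.52 ± 0.09 (adjusted p = 0.000543). Its tags were 2.98 to 3.62 per M tags in FB and 1.90 to 2.43 in limb, which was higher in FB by 0.48 ± 0.10 (adjusted p = 0.000251). The fold divides by the tags in the surroundings of the summit and the tag value does not. Over the start (chr4:22487492-22489089) mean folds were 10.7 in DFL, 8.99 in PFL and 9.84 in FB (−0.16 ± 0.08, adjusted p = 0.141).

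Pou3f3 (chr1:42695768-42703176, plus strand, a single exon) had 7 and 8 (wt) and 7 and 7 (542) listed regions in DFL, and 8 and 9 (wt) and 9 and 8 (542) in PFL. FB had 13 and 9 (wt) and 12 and 14 (542), where the wt library with 9 met the upper PFL values. The difference was 0.54 ± 0.10 (adjusted p = 0.00409), with 0.40 in wt (adjusted p = 0.0704) and 0.68 in 542 (adjusted p = 0.0116). With all deposited regions it was 0.11 (adjusted p = 0.35) and with regions ranked by fold 0.06 (adjusted p = 0.66). Of its 22 consensus regions 12 were intronic, 9 in the noncoding Pantr1 gene, which starts under the same region and runs the other way, and 3 in AC122898.1.

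Over the Pou3f3 start (chr1:42694275-42696086) folds were 7.76 and 7.85 in wt FB, 6.88 and 7.05 in 542 FB and 5.08 to 7.22 in limb, and the fold difference did not pass (0.22 ± 0.12, adjusted p = 0.164). Its tags did pass, at 1.53 ± 0.16 on log2 (adjusted p = 7.08e-10), with 8.54 to 9.10 per M tags in 3 FB libraries, 3.15 in the first wt FB library, where the tags of the strongest summit could not be recovered, and 1.65 to 2.70 in limb. The FB-only region 8.8 kb downstream (chr1:42703485-42704739) had 5.15 to 6.79 in FB, that 66.8 kb upstream (chr1:42628735-42629216) had 5.20 to 7.31, and neither was called in limb. The limb-only region 76.5 kb downstream (chr1:42771541-42772527) had 7.98 and 9.02 in wt DFL, 5.72 and 6.33 in 542 DFL, 8.09 and 8.07 in wt PFL and 12.9 and 7.85 in 542 PFL. A region 65.9 kb upstream (chr1:42629579-42630390), next to that FB-only one, was lower in FB (3.12 to 5.27) than in limb (5.68 to 9.0), by −0.89 ± 0.16 (adjusted p = 0.00055), and its tags were lower too (−1.16 ± 0.18, adjusted p = 2.47e-06).

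Pou3f1 (chr4:124656807-124660655, plus strand, a single exon) had 8 and 10 (wt) and 7 and 9 (542) listed regions in DFL, and 8 and 10 (wt) and 9 and 9 (542) in PFL. FB had 10 and 10 (wt) and 11 and 11 (542), at or above the top of the limb range. The difference of 0.24 ± 0.09 did not pass (adjusted p = 0.0537). It did at 250 kb (0.60, adjusted p = 0.000139), and it was −0.27 with the 20000 strongest regions (adjusted p = 0.0862). With 5 other coding genes, this window is the most crowded of the 9, and 6 of the 7 Pou3f1 regions listed in every library cover or lie in Utp11, Fhl3, Sf3a3 or Inpp5b. The start region itself (chr4:124656707-124658464) had mean folds of 11.9 in DFL, 12.1 in PFL and 11.7 in FB (−0.21 ± 0.09, adjusted p = 0.101). Its tags did not differ past the threshold after quantile normalization (0.16 ± 0.09, adjusted p = 0.156), and the ratio of means without it was 1.24.

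Its 2 FB-only regions lie between the gene and that cluster. At 15.8 kb downstream (chr4:124672091-124673353) folds were 8.15 and 6.94 in wt FB and 8.06 and 7.03 in 542 FB, against 2.71 to 4.21 in 6 limb libraries, and at 11.5 kb (chr4:124668079-124668505) they were 4.30 to 5.78 with no limb call. Lower values in FB were found in Fhl3, which encodes a LIM protein of muscle. An exonic region there (chr4:124708501-124709481, 52.3 kb downstream) had 7.03 and 6.91 in wt FB and 4.89 and 6.72 in 542 FB against 9.98 to 11.7 in limb, by −0.89 ± 0.09 (adjusted p = 8.3e-06), and its tags were lower by −2.24 ± 0.09 (adjusted p = 9.41e-20). The region over an Fhl3 start (chr4:124700220-124701210) was lower by −0.49 ± 0.11 (adjusted p = 0.00345), though not past the threshold within 542 (−0.40, adjusted p = 0.0883). An intronic Fhl3 region (chr4:124704004-124704594) had higher folds in FB (0.37 ± 0.10, adjusted p = 0.00849; 0.30 within wt, adjusted p = 0.133) and fewer tags (−1.17 ± 0.14, adjusted p = 1.58e-08).

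**Figure D4:**
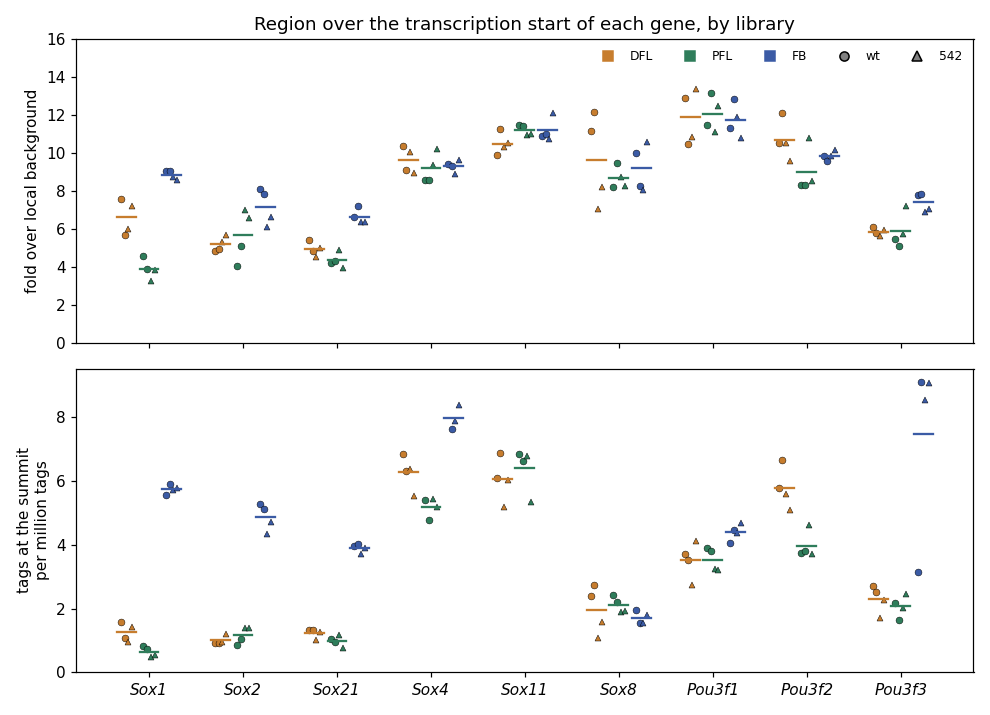
Region over the transcription start of each gene. The upper panel gives the fold over local background and the lower panel the tags at the summit per M tags of the library, for each library (circles wt, triangles 542) with the mean of each tissue as a short bar. At Sox1, Sox2 and Sox21 the FB libraries lie at 3.72 to 5.90 tags per M tags against 0.475 to 1.60 in limb, a wider gap than in the folds. For Sox11 and Pou3f2 no FB tag value, and for Sox4 only 3 of 4, could be recovered.

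Over all 9 genes, 35 of the 144 regions were called in all 12 libraries and could be fitted. By fold, 5 were higher and 6 lower in FB, against 18.9% and 18.6% of all 26902 such regions. By tags per M tags, 16 of 29 were higher and 8 lower, against 28.6% and 25.5% of 21275. The 2 measures had the same sign at 20 of these 29 regions. For DFL against PFL, 1 region was higher (Sox1 start) and 1 lower (76.4 kb upstream of Pou3f2), against 4.41% and 3.21% of all regions. By number of listed regions no gene of the 9 differed between DFL and PFL, against 3.15% and 3.26% of all genes. The differences furthest from 0 were those of Sox1 (0.45, adjusted p = 0.346) and Pou3f3 (−0.20, adjusted p = 0.321).

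**Figure D5:**
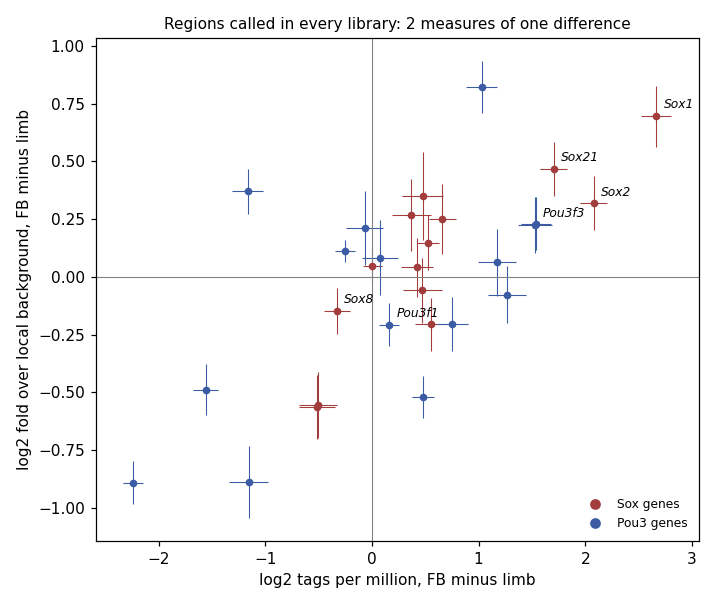
FB minus limb difference of the 29 regions of the 9 genes with both measures, as log2 tags per M tags (horizontal) and log2 fold over local background (vertical), with standard errors. Both were fitted after quantile normalization. Sox genes are red, Pou3 genes blue, and regions over a gene's own start are named. The starts of Sox1, Sox2, Sox21 and Pou3f3 lie at 1.53 to 2.66 on the horizontal axis and at 0.22 to 0.70 on the vertical axis.

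Presence in the lists gave 26 FB-only regions among the 144 (18.1%), against 8.8% of all consensus regions. The share depended on the lists, with 4 of 43 (9.3%) against 7.44% of all with the 20000 strongest regions, 15 of 130 (11.5%) against 8.43% ranked by fold and 35 of 300 (11.7%) against 6.43% with all deposited regions. Counts per gene ran from 7 of 24 regions at Sox2 and 5 of 19 at Sox1 to 1 of 7 at Sox11 and 1 of 16 at Sox8. Each of the 9 genes thus had at least 1, but the share of all genes with at least 1 is not given, so this has no background. Limb-only regions, in all 8 limb lists and no FB list, numbered 3 (Sox11, Sox8, Pou3f3), against 4.81% of all. None was in all DFL and no PFL lists (2.53% of all) or the reverse (2.03%). In every list were 22 (15.3%, against 17.4% of all). Of these, 15 (68.2%) lay over a transcript start, against 63.9% of all regions in every list. In the 50000 lists a region absent from limb can still be called there at a lower rank. Of the 26 FB-only regions, 11 (42.3%) had no limb call at any rank, against 58.0% of the 9291 FB-only regions of the genome.

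The FB-only regions of the 9 genes are set beside the 9291 FB-only regions of the genome as a description without a test. Their median CpG ratio (observed over expected) was 0.519 against 0.219 and their median GC content 50.2% against 45.0%. All 144 regions of the 9 genes were also above all consensus regions in CpG ratio (0.439 against 0.25) and GC content (51.8% against 47.3%). Of the 26, 4 (15.4%) lay over a transcript start, against 3.81%. Among all 144 regions of the 9 genes this share was 16.7%, against 15.5% of all consensus regions. The cause of this difference was not tested. In the 300 bases around the summit, TAATTA on either strand occurred in 11 of 26 (42.3%) against 32.7%, and ACAAT in 15 (57.7%) against 55.2%. ACAAAG occurred in 8 (30.8%) against 36.1%, and ATGCAAAT in 1 (3.85%) against 10.3%. CAGCTG was in 6 (23.1%) against 26.7%, CAGATG in 2 (7.69%) against 28.7% and ATGCTAAT in 1 (3.85%) against 7.65%. Over all 105605 consensus regions the shares were 14.0% for TAATTA, 38.8% for ACAAT, 24.9% for ACAAAG and 3.09% for ATGCAAAT, and 25.5% for CAGCTG, 27.2% for CAGATG and 2.24% for ATGCTAAT.

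No difference between 542 and wt passed at any of the 9 genes, by number of regions (0 of 9, limma, against 0.242% with more and 0.178% with fewer among all genes) or by fold (0 of 35, against 0.264% higher and 0.286% lower among all regions). At an unadjusted p under 0.05 there were 3 of the 9 genes, against 14.9% of all genes, and 2 of the 35 regions, against 13.8% of all regions. The smallest p was that of Sox8, with fewer regions in 542 (−0.31 ± 0.05, adjusted p = 0.0719). The Sox8 DFL libraries had 10 and 10 regions in wt and 7 and 7 in 542, FB 8 and 7 against 6 and 5, and the PFL libraries overlapped. Sox11 (−0.28, adjusted p = 0.24) and Pou3f2 (0.28, adjusted p = 0.301) followed. By tags per M tags, 1 of 29 regions passed, 18.9 kb downstream of the Pou3f3 start, at 0.50 higher in 542 (adjusted p = 0.0336), against 2.15% higher and 1.53% lower among all 21275 regions. The FB against limb difference of the 9 genes did not differ between genotypes past the threshold (interaction, adjusted p from 0.602 to 0.973). No region was in all wt and no 542 lists or the reverse, against 0.0133% and 0.0142% of all consensus regions. Depth and the genome used for mapping differ with genotype and cannot be told apart from it.

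Other genes of both families were counted the same way. Of 13 further SOX genes, 7 had more regions in FB and 3 fewer (median 0.26), against the 23.0% and 20.4% of all genes given above, which also apply to the lists that follow. Sox3, the third B1 gene, had 4 to 7 listed regions in FB and 0 or 1 in limb (1.80 ± 0.17, adjusted p = 0.000274), Sox9, a gene of cartilage and glia, had 7 to 9 against 2 to 4 (1.44 ± 0.14, adjusted p = 0.000345), and Sox14, the other B2 gene, had 6 or 7 against 1 to 3 (1.24 ± 0.14, adjusted p = 0.00055). Fewer were listed at Sox6 (15 to 22 against 22 to 30), Sox30 (9 to 11 against 11 to 14) and Sox17 (2 against 2 to 5). Of 10 further POU genes, 4 had more and none fewer (median 0.10). Pou3f4, the remaining POU3 gene, had 3 to 5 in FB and 1 or 2 in limb (1.01 ± 0.17, adjusted p = 0.00291), and Pou2f2 (0.28) also passed. Pou4f3 (0.49) and Pou2f1 (0.15) passed against both limb parts together, but DFL and FB overlapped. Pou4f3 had 4 or 5 regions in FB, 3 to 5 in DFL and 2 or 3 in PFL, and Pou2f1 had 13 to 15 in FB, 14 or 15 in DFL and 9 to 11 in PFL, where its DFL mean (14.8) was above its FB mean (13.8). Pou5f1, the octamer factor of pluripotent cells, had 4 to 6 against 4 to 8.

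Of 14 genes linked to these factors in neural cells, 9 had more regions in FB and 1 fewer (median 0.33). Olig2, of the ventral progenitor and oligodendrocyte lineage, had 12 to 15 against 1 to 4 (2.12 ± 0.23, adjusted p = 0.000467), and Neurog2, a proneural factor, had 11 to 14 against 4 to 9 (0.86 ± 0.09, adjusted p = 0.00051). Nes, which encodes the progenitor filament nestin and has an intronic enhancer read by SOX and POU factors, had 14 in each FB library and 12 to 16 in limb (0.00 ± 0.04, adjusted p = 0.964). Dcx, a microtubule protein of migrating neurons, had 5 or 6 in FB, 3 to 7 in DFL and 8 to 11 in PFL. It passed as fewer in FB against both limb parts together (−0.36 ± 0.12, adjusted p = 0.0493), while FB and DFL overlapped and DFL was below PFL (−0.70, adjusted p = 0.0349).

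By Pearson correlation of log2(n + 1) over the 12 libraries, as a description, Sox2 was most like 1110051M20Rik (0.963), Slc38a8 (0.957) and Sp2 (0.952), Sox11 like Mex3a (0.882), Rab25 (0.882) and Ssr2 (0.872), and Pou3f2 like Dcc (0.969), Sult1c1 (0.966) and Wdr25 (0.966). These libraries share the contrast of FB and limb, which did not pass at Sox11. As Sox11 had only 2 or 3 listed regions in each of the 12 libraries, its correlations are not informative. Genes next to each other share regions in such counts.

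The earlier wt DFL library, with 78.0 M tags the deepest, listed 6 regions at Sox1, 6 at Sox2, 5 at Sox21, 6 at Sox4, 3 at Sox11, 11 at Sox8, 10 at Pou3f1, 4 at Pou3f2 and 9 at Pou3f3. Each lay within or 1 above the range of the 4 DFL libraries. When it was added to wt DFL and the lists were merged anew, 23 of 146 regions (15.8%) were FB-only, against 8.46% of all.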

How the data were processed

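ATAC-seq was done on 50000 cells per library from forelimb and forebrain at E12.5. As the paper's methods state, the authors trimmed reads with Cutadapt, mapped them with bowtie2 on mm10 or a 542 version of it (mm10 for wt and the latter for 542, by the names of the deposited files), removed low-quality, discordant and mitochondrial reads and duplicates, and called regions per library with MACS2 without a control, on tags of 200 bp centred on the insertion, with summits listed separately. The deposited fold (a ratio) is (tags + 1) over (local background + 1). The deposited −log10 p and −log10 q were used for recovery of tags and for ranking, and the deposited score restates −log10 q. Local background rises where neighbouring DNA is open, which lowers the fold.

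From these files, regions were made unique with their strongest summit, and the 50000 strongest by −log10 q were kept. For the consensus regions, lists were merged at an overlap of 1 bp and chromosome 2 from 75 Mb was left out. The counts per gene were taken from the lists with chromosome 2 in full. Genes were fitted with limma 3.58.1 (R 4.3.3) on log2(n + 1) for 18578 of 21911 coding genes with a mean of at least 2 regions. Folds were fitted on log2 after quantile normalization for 26902 regions called in all 12 libraries. Both used 6 group means and Benjamini-Hochberg adjustment at 0.05. A fold change of counts on log2(n + 1) understates that of low counts. Tags at a summit were solved for from fold and p, as the whole number that best matched both within 0.001, and divided by an estimated library total. The resulting tags per M tags were fitted like the folds, on log2 after quantile normalization, for 21275 regions. Fitted tag differences can therefore depart from the ratios of means. A value was recovered for 94.6 to 95.8% of regions in FB, 97.3 to 98.8% in limb and 94.3% in the earlier wt DFL library. Where the strongest summit was not recovered, the value is that of a weaker one. Depth was 37.5 to 70.7 M tags per library. No library shared more than 92 identical regions with another. Replicates are separate pools of embryos. The fits did not pair libraries by replicate number, and whether same-numbered libraries of different tissues came from the same embryos is not known. The fits were tested on simulated data. By rule the text names, for each gene, its start region, up to 2 FB-only regions and 1 limb-only region with the highest fold, up to 5 fitted regions per direction past the threshold, up to 3 genes per list and direction, and the 3 genes most alike. Other regions and genes it names were chosen after their values were seen. Some results that the rule would name are not reported here. The members and lists were chosen with earlier results of these data known. Alternatives are given in the closing section.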

Additional observations from a re-analysis of the deposited data

Results flagged for a closer look

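In sets of 4 libraries of a tissue, 10 of 78 sets had a library whose gap to the others exceeded Dixon's critical value for its share of the range, where chance gives about 1 in 20. For whole counts within 1 or 2 of each other a single step is enough. These were Sox21 in the first wt DFL (5 regions) and the first 542 FB library (10), Sox4 in the second wt PFL (5), Sox11 in the second wt DFL (3) and the second 542 FB (2), Sox8 in the second wt PFL (9), Pou3f2 in the first wt PFL (3) and Pou3f3 in the second wt DFL library (8). Among folds, they were the Pou3f2 start in the first 542 PFL library (10.8) and the Fhl3 exon near Pou3f1 in the first 542 FB library (4.89).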

How the results depend on the processing

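Of 414 alternative values of counts, 353 stayed within 1.5 times and 61 did not, and of 528 values of single genes or regions 438 kept direction and side of the threshold, 71 lost it, 8 gained it and 11 reversed. The causes were not tested. Genes with more regions in FB (6) numbered 2 with the 20000 strongest regions, where 5 of the 9 genes were tested. They numbered 3 within wt, where the share of all genes is not given, and 5 to 7 without 1 library. Genes with fewer (1) numbered 0 with the 20000 strongest, all deposited regions, 50 kb or a fold of at least 5, and 1 without any library. Genes with more in DFL (0) numbered 1 with the 20000 strongest, all deposited regions, 50 kb and 250 kb, and 2 ranked by fold. Regions with higher fold in FB (5 of 35, against 5082 of all 26902) numbered 3 with medians set equal (4311 of all 26902). They numbered 8 without normalization (10556 of all 26902), 16 of 29 by tags (6094 of 21275) and 9 of 51 with missing values left out (7372 of 36345). Within 542 they numbered 3. Without 1 library they numbered 4 to 6, and those lower (6) 5 to 7. Regions higher in DFL (1) numbered 2 with the earlier library or by tags and 0 within wt, and 1 to 2 without 1 library. Regions lower in DFL (1) numbered 0 with medians set equal, no normalization, tags, the replicate block or within 542, and 0 to 1 without 1 library. Regions higher in 542 (0) numbered 1 by tags. FB-only regions (26 of 144, 18.1% against 8.8% of all) numbered 4 of 43 with the 20000 strongest (9.3% against 7.44%), 15 of 130 ranked by fold (11.5% against 8.43%), 16 of 111 at a fold of at least 5 (14.4% against 9.11%), 52 of 315 at 250 kb (16.5% against 8.8%) and 26 to 30 without 1 library. Limb-only regions (3 of 144, 2.1% against 4.81% of all) numbered 6 of 300 with all deposited regions (2.0% against 3.81%). They numbered 1 of 85 at 50 kb (1.2% against 4.81%) and 12 of 315 at 250 kb (3.8% against 4.81%), and 3 to 5 without 1 library. DFL-only regions (0) numbered 1 of 43 with the 20000 strongest (2.3% against 2.12% of all) and 6 of 300 with all deposited (2.0% against 2.05%). They numbered 2 of 130 ranked by fold (1.5% against 2.41%) and 4 of 144 with an overlap over a larger part of the region (2.8% against 2.5%). At a fold of at least 5 they numbered 3 of 111 (2.7% against 2.63%) and at 250 kb 2 of 315 (0.6% against 2.53%). PFL-only regions (0) numbered 5 of 300 with all deposited (1.7% against 1.49% of all) and 1 of 315 at 250 kb (0.3% against 2.03%). Without 1 library, DFL-only and PFL-only regions each numbered 0 to 1. Regions in every library (22) numbered 10 of 43 with the 20000 strongest (23.3% against 29.2% of all) and 35 of 300 with all deposited (11.7% against 10.7%). They numbered 14 of 111 at a fold of at least 5 (12.6% against 17.2%) and 47 of 315 at 250 kb (14.9% against 17.4%), and 22 without any library. Counts for 542 against wt stayed 0 without 1 library, as did genes for DFL against PFL. Where no share of all genes or regions stands beside a count in this section, that count has no background to be set against.

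Reversed values were Sox11 (−0.092 with all deposited regions, −0.69 at 250 kb), Sox8 (0.18 and 0.21), Pou3f1 (−0.27 with the 20000 strongest), Pou3f2 (−0.046 ranked by fold), Sox8 in 542 against wt (0.028 with the 20000 strongest), the Sox2 start (−0.052 within 542), the regions 11.2 kb downstream of Pou3f2 (0.48) and in the Fhl3 intron (−1.17) by tags, and DFL against PFL 76.4 kb upstream of Pou3f2 (0.042 within 542). Without normalization the median of all fitted regions was 0.14 instead of 0.01. With the replicate block 6 genes had more and 1 had fewer regions in FB, Sox4 did not pass (adjusted p = 0.069) and Pou3f1 did (adjusted p = 0.0295). Between groups, correlations of the difference between first and second replicate ran from −0.05 to 0.03, none over 0.1. They showed no pairing by number but cannot tell whether same-numbered libraries shared embryos. Within-genotype fits were added after seeing the data. Depth was higher in FB than in limb, and a region absent from a list may be present below its rank.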
